A study of Mus musculus with 18 samples.

Results

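This comparison asked whether a mixture of 9 pesticides, given alone to mice, altered gene expression in the brain. It holds 6 of the 18 arrays of the series, 3 from mice gavaged with water (control) and 3 from mice gavaged with the mixture (ADI), and all 12439 features of the deposited value table. The arrays were chosen by their titles, and each ADI array was set beside the control array with the same replicate number, which gives 3 pairs. All mice were male BALB/cOlaHsd animals aged 8 weeks at the start, fed standard chow. Gavage was daily for 20 days, and brains were collected on day 20 from 3 of the 12 mice of a group. Each pesticide was given at its acceptable daily intake, and the mixture was prepared from compounds used in conventional potato growing. The labels name neither these compounds nor the brain region of each piece of tissue. The other 12 arrays belong to mice given potato flour and are not compared here.

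An acceptable daily intake is the amount of a substance that regulators judge a person can take in every day over a lifetime without appreciable risk. Many insecticides act on targets of nerve cells, such as acetylcholinesterase, voltage-gated sodium channels and nicotinic receptors, while foreign compounds of many classes induce detoxifying enzymes through nuclear receptors and antioxidant genes through the factor Nrf2. Glial activation, stress signalling and cytokine signalling are among the brain responses usually examined after such exposure.

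Only 51 features carry a gene symbol, those of a list that the authors deposited with the series, and every other feature is known by its number alone. Of the lists drawn up for this comparison, xenobiotic and oxidative response (15 genes), cholinergic signalling (9), inflammatory glia (9), immediate early genes (7), steroid and thyroid response (6) and markers of brain cell types and blood (22) have 0 members with a symbol. The labelled tissue could therefore not be checked against defining markers. How the authors chose the 51 genes was not stated. Their deposited list gives changes of the ADI and potato arrays over the controls, so the genes may have been picked on these samples, and counts over the list are not independent evidence.

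The 6 arrays were of like brightness. The 75th percentile of deposited intensity was 871, 838.5 and 1060 in control replicates 1 to 3 and 1002, 987.5 and 878.5 in ADI replicates 1 to 3. On average ADI arrays were 1.04-fold as bright (exact permutation test of 3 against 3, two-sided p = 0.80, where 0.10 is the smallest possible). Within pairs the ADI array was brighter in 2 of 3 (exact sign-flip test, two-sided p = 1, where 0.25 is the smallest possible). With the 75th percentile of every array set equal, log2 values of any 2 arrays correlated over features at r = 0.97 to 0.98, a description of arrays that share one design. No column equalled another column of the series in more than 0.924% of features. In brain pieces, fewer cells of a type and less RNA per cell cannot be told apart.

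No feature passed the test of ADI against control. In the paired fit (limma, Benjamini-Hochberg adjustment over all features), 0 of 12439 features passed an adjusted p of 0.05, which is 0% of those tested, and the smallest adjusted p was 0.539. At an unadjusted p under 0.05 there were 522 features, 252 higher and 270 lower in ADI, or 4.20% of those tested. Without the pairing the same count was 299, or 2.40%, and again 0 passed, with a smallest adjusted p of 0.105 (limma). With no scaling of the arrays 36 features passed, 22 higher and 14 lower in ADI. The median log2 difference over all features was -0.0018, with a 5th percentile of -0.34 and a 95th percentile of 0.35. None of the 51 listed genes passed (smallest adjusted p 0.998), and 1 of them, Cish, had an unadjusted p under 0.05, a count that was 0 without any 1 of the pairs. It was 2 with no scaling (Phldb2 and Olfr1278) and 2 with a floor of 64 or an intensity trend (Cish and Olfr1183). Over all 12439 features the same count was 565 with no scaling, 552 with a floor of 64 and 370 with an intensity trend.

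The listed genes lay close to equality between the groups. Their median log2 difference was 0.049, with 33 estimates above 0 and 18 below, and it was 0.009 without pair 2 and 0.105 with no scaling. The median absolute difference was 0.056 for the list, 0.095 over all features and 0.061 over the 5659 features at least as bright as the dimmest listed gene. Leaving out Phldb2 and Olfr1278, the estimates of the other 49 genes spanned -0.20 to 0.42. ADI was higher in all 3 pairs for 8 listed genes, or 15.7%, against 10.8% of all features, and lower in all 3 pairs for 2, or 3.92%, against 11.6%. With no scaling the listed genes numbered 5 higher and 0 lower, and over all features 1258 were higher and 463 lower in place of 1346 and 1444. With median scaling the listed counts were 6 and 1, beside 1279 and 1572 over all features. With quantile normalization the listed counts were 7 and 1, beside 1358 and 1471. The pairs were unlike in this respect: ADI was higher in 27 listed genes in pair 1, in 38 in pair 2 and in 26 in pair 3, where over all features the shares were 49.4%, 44.8% and 54.1%.

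**Figure D1:**
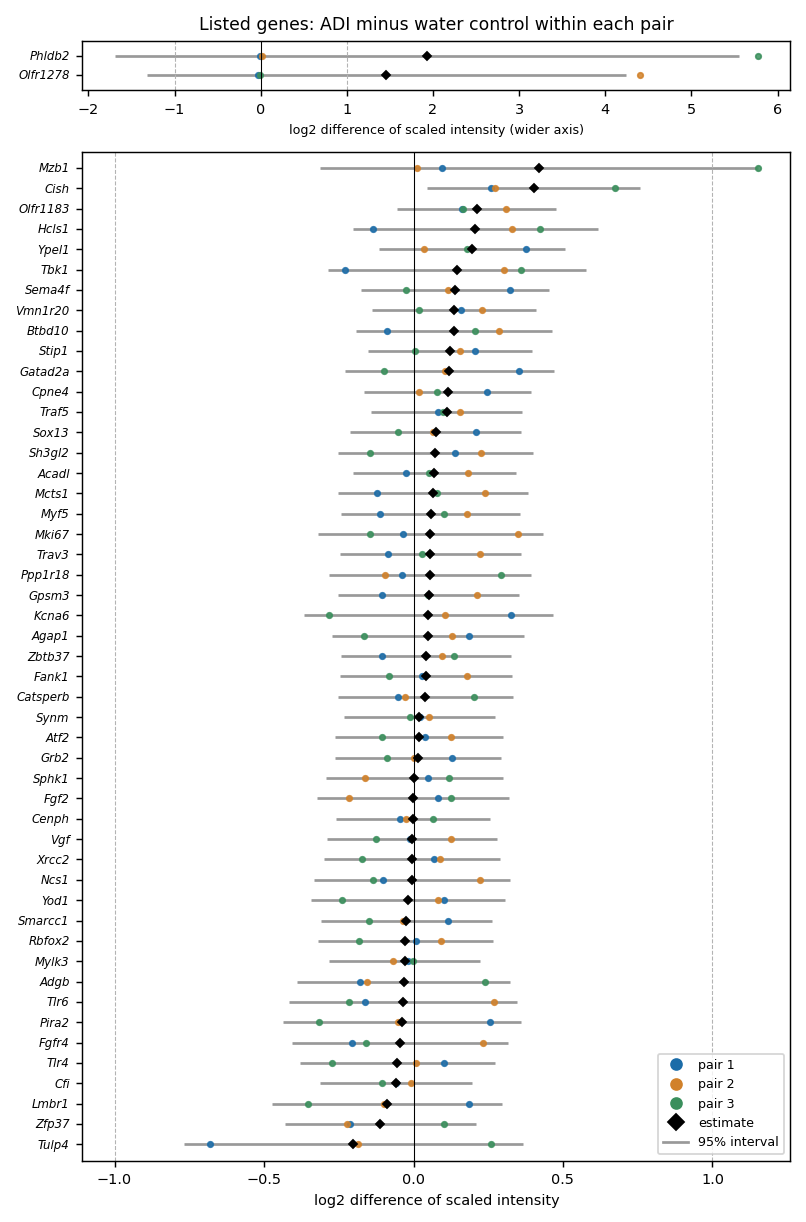
Log2 difference of scaled intensity, ADI minus water control, for the 51 listed genes, with a coloured point for each pair, a diamond for the estimate and a grey bar for its 95% interval (paired limma fit). Dashed lines mark 2-fold. Phldb2 and Olfr1278 stand on a wider axis above, each with 1 pair far from the other 2 pairs, and the other 49 estimates lie between -0.20 and 0.42.

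The 3 highest estimates among listed genes each came with 1 dim control array. Phldb2, a pleckstrin homology domain protein of the cell cortex, had scaled intensities of 1040.4, 863.0 and 3.53 in control replicates 1 to 3. In ADI replicates 1 to 3 it had 1036, 873.1 and 877.0. Only control replicate 3 is low, with a deposited intensity of 4, and the groups overlap. The log2 difference was 1.93 ± 1.33 (SE), with a 95% interval of -1.70 to 5.56, and it was 0.005 without pair 3. Its size also depends on the floor of 16 set on low values: with a floor of 64 it was 1.26, and with a floor of 1 it was 2.66. Only with no scaling of the arrays did it pass (limma, adjusted p = 0.0165).

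Olfr1278, one of the odorant receptors, which are G protein-coupled receptors of olfactory neurons, had 911.4, 69.2 and 1046.5 in controls and 894.1, 1462.7 and 1043 in ADI. Control replicate 2 is the low array and ADI replicate 2 is the highest of the 6, so pair 2 carries the difference. The estimate was 1.46 ± 1.02 (SE), and without pair 2 it was -0.016. Mzb1, an endoplasmic reticulum protein that helps B cells and plasma cells assemble antibody, had 1282, 1415.6 and 593.5 in controls and 1369, 1429 and 1318 in ADI. Control replicate 3 is again the low one and the remaining 5 arrays lie within a narrow band. The estimate of 0.42 ± 0.27 (SE) became 0.054 without pair 3. These 3 genes are the only listed ones whose 95% interval reached past a 2-fold difference.

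Features in which 1 array lay far below the other 5 were few and unevenly spread over arrays. In 20 of 12439 features 1 array was at least 4-fold below the next lowest, and none had 1 array at least 4-fold above the next highest. The low array was control replicate 2 in 8 of them, control replicate 3 in 7, ADI replicate 2 in 4 and control replicate 1 in 1. ADI replicates 1 and 3 had 0. Phldb2 and Olfr1278 are the 2 listed genes among the 20. Of the 10 features with the highest estimates, 6 were of this kind, Phldb2 ranking 1 and Olfr1278 ranking 6. The files hold no spot flags, and what made these spots dim was not tested.

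**Figure D2:**
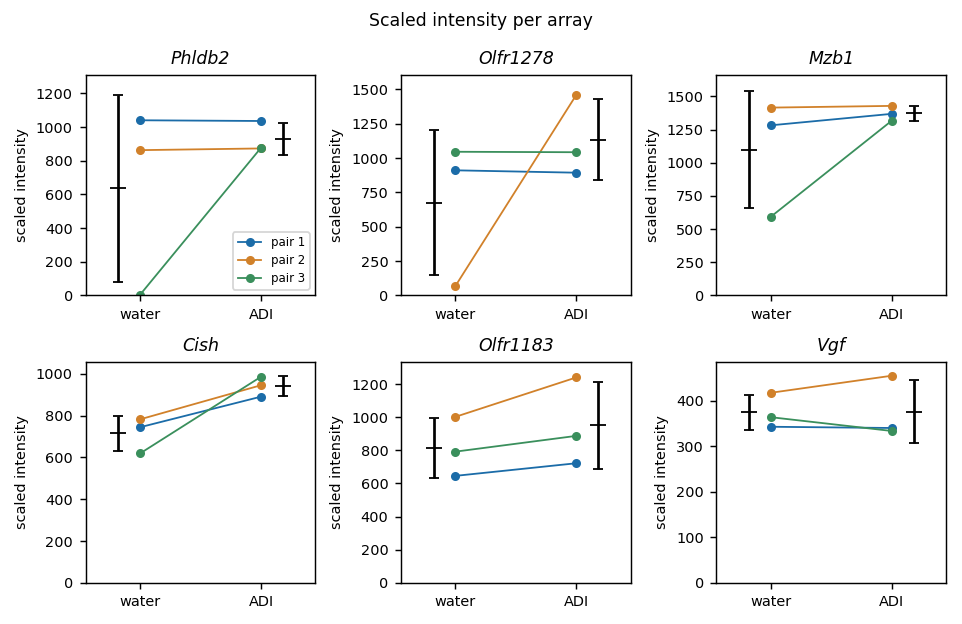
Scaled intensity (linear axis from 0) of 6 listed genes on each array, with lines joining the control and ADI arrays of a pair and black bars for the mean and SD of 3 arrays. A single dim control array sets the slope in Phldb2, Olfr1278 and Mzb1, while the 3 lines of Cish and of Olfr1183 run upward and those of Vgf cross.

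Cish was the listed gene with the smallest unadjusted p. It encodes a cytokine-inducible SH2 protein of the SOCS family, which dampens JAK-STAT signalling and is itself a target of STAT5. Its scaled intensities were 744.8, 782.6 and 619.1 in controls and 891.3, 946.1 and 986.7 in ADI. Every ADI array lay above every control array. The means were 715.5 ± 85.6 (SD, n = 3) and 941.4 ± 47.9 (SD, n = 3), and the log2 difference was 0.40 ± 0.13 (SE), a 1.32-fold ratio with a 95% interval of 0.045 to 0.76 on the log2 scale. It did not pass over all features (limma, unadjusted p = 0.0349, adjusted p = 0.998). The pair differences were 0.26, 0.27 and 0.67, and without pair 3 the estimate was 0.27. Its unadjusted p in limma was 0.0675 without pair 1, 0.0653 without pair 2, 0.0972 without pair 3 and 0.0664 with no scaling.

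Ypel1, a member of the yippee family of zinc-binding proteins, was the other listed gene whose groups did not overlap. It had 406.3, 521.4 and 472.5 in controls and 526.9, 533.7 and 534.9 in ADI. The ADI arrays lay just above the highest control, and the estimate was 0.20 ± 0.11 (SE). With no scaling the groups of Ypel1 overlapped, with deposited intensities of 535 in control replicate 3 and 502 in ADI replicate 3. No listed gene had every ADI array below every control. Over all features, groups were apart with ADI higher in 289, or 2.32%, and with ADI lower in 328, or 2.64%, which is 4.96% in either direction.

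Besides Mzb1, Cish and Ypel1, 5 listed genes were higher in ADI in all 3 pairs. With no scaling neither Ypel1 nor any of these 5 was higher in every pair. Olfr1183, an odorant receptor, had 645.9, 1002.5 and 792.2 in controls and 722.2, 1240.9 and 887.6 in ADI. The pair differences were 0.16, 0.31 and 0.16, the largest in pair 2, and the groups overlap, and the estimate was 0.21 ± 0.097 (SE). Vmn1r20, a vomeronasal receptor of pheromone-sensing neurons, had 816.8, 1405.6 and 744.5 in controls and 912.8, 1648.5 and 753.4 in ADI. Its level was highest in replicate 2 of both groups, and the estimate was 0.14 ± 0.10 (SE).

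Cpne4, a copine that binds phospholipid in the presence of calcium, had 666.4, 1173 and 802.8 in controls and 790.4, 1188 and 847.1 in ADI. Stip1, the co-chaperone that links Hsp70 to Hsp90, had 2411, 2889 and 2079 in controls and 2780.3, 3218 and 2086 in ADI. Traf5, an adaptor of TNF receptors, had 1814, 1934 and 1484.5 in controls and 1919, 2150.9 and 1589 in ADI. In these 3 genes the groups overlap and the estimates were between 0.11 and 0.12 on the log2 scale.

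The 2 listed genes lower in ADI in all 3 pairs had small differences and depended on the scaling: median scaling left Mylk3 alone, quantile normalization left Cfi alone, and with no scaling neither was lower in every pair and the estimate for Mylk3 was 0.027. Cfi, the serine protease factor I that inactivates complement C3b and C4b, had 573.9, 678.8 and 559.9 in controls and 551.2, 674.0 and 521.1 in ADI, with an estimate of -0.057 ± 0.093 (SE). Mylk3, the cardiac myosin light chain kinase, had 1278, 1470.3 and 1287 in controls and 1262, 1403 and 1286 in ADI, with an estimate of -0.029 ± 0.092 (SE). The groups overlap in each gene, and both are among the 5 listed genes with the narrowest intervals.

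By the authors' grouping, the immune genes numbered 10, with a median log2 difference of 0.046 and 0 that passed. Tbk1, the kinase that phosphorylates IRF3 downstream of nucleic acid sensors, had 706.1, 686.6 and 521.0 in controls and 602.6, 847.5 and 669.2 in ADI. Its pairs disagreed, with ADI lower in pair 1 and higher in the other 2, and its interval of -0.29 to 0.58 was among the 5 widest of the list. Tlr4, the receptor for bacterial lipopolysaccharide, had 674.9, 980.2 and 922.0 in controls and 724.0, 985.9 and 764.0 in ADI. Its groups overlap, and its estimate of -0.054 ± 0.12 (SE) stood beside -0.036 ± 0.14 for the related receptor Tlr6. Trav3 and Pira2 belong to families of near-identical genes, and their probes may bind related transcripts; their estimates were 0.056 and -0.037.

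The 23 genes that the authors group under carcinogenesis had a median of 0.049, with 16 estimates above 0 and 7 below. Synm, an intermediate filament protein, had 1957, 2141 and 2054 in controls and 1988, 2219 and 2035.3 in ADI. Cenph, a kinetochore protein, had 788.9, 1004 and 845.2 in controls and 764.2, 985.9 and 883.4 in ADI. Both genes had nearly equal values within each pair and lie among the 5 listed genes with the narrowest intervals, -0.23 to 0.27 for Synm and -0.26 to 0.26 for Cenph. The proliferation marker Mki67 had an estimate of 0.056 ± 0.14 (SE), and the growth factor Fgf2 had -0.002 ± 0.12.

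Among genes with neuronal roles, the 4 secretory and synaptic ones (Vgf, Sh3gl2, Cpne4 and Sema4f) had a median of 0.093 and 0 that passed. Vgf, which neurotrophins induce and which is cleaved into secreted neuropeptides, had 342.8, 417.5 and 363.8 in controls and 340.1, 455.0 and 333.5 in ADI. The means nearly coincide, at 374.7 ± 38.5 (SD, n = 3) in controls and 376.2 ± 68.3 (SD, n = 3) in ADI. The pair differences were -0.012, 0.12 and -0.13 on the log2 scale. Sh3gl2, the endophilin that helps retrieve synaptic vesicles, had an estimate of 0.072 ± 0.12 (SE), and Sema4f, a class 4 semaphorin, had 0.14 ± 0.12. Ncs1, a neuronal calcium sensor, had -0.006 ± 0.12, and the potassium channel Kcna6 had 0.050 ± 0.15. The 3 chemosensory receptors (Olfr1183, Olfr1278 and Vmn1r20) had estimates above 0 and none passed.

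The 4 genes of chromatin, transcription and splicing had a median of 0.007. Gatad2a, a subunit of the NuRD complex, had 0.12 ± 0.13 (SE), Zbtb37 had 0.041 ± 0.11 and Rbfox2, a splicing regulator, had -0.027 ± 0.11. Zfp37, a zinc finger protein, had 771.7, 873.0 and 1595 in controls and 666.1, 747.9 and 1713.5 in ADI. Replicate 3 was the high array in both groups, and the estimate was -0.11 ± 0.12 (SE).

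The 2 remaining genes with the lowest estimates were Lmbr1 and Tulp4. Lmbr1, a membrane protein whose gene holds the limb enhancer of Shh, had 327.8, 599.5 and 378.0 in controls and 372.8, 560.2 and 296.2 in ADI, with an estimate of -0.088 ± 0.14 (SE). Tulp4, a tubby-like protein, had 53621, 53262 and 28255 in controls and 33475, 46867 and 33816 in ADI, with an estimate of -0.20 ± 0.21 (SE). The low arrays of Tulp4 were control replicate 3 and ADI replicates 1 and 3, so the groups overlap. Without pair 1 the estimate was 0.037 and without pair 3 it was -0.43.

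More features had a small p for the replicate number than for the group. Deviations from the group mean correlated over features at r = 0.22, 0.33 and 0.26 between same-numbered control and ADI arrays. Between arrays of different number r lay from -0.21 to -0.046, where deviations within a group sum to 0 and so pull such values down. In the same fit, replicate number was tested by an F test over its terms together, and the group by a t test of its own term. The test of replicate number was added after the data were seen, and the shares come from unlike tests. For replicate number 1847 features, or 14.8%, had an unadjusted p under 0.05, against 4.20% for the group, and 0 passed adjustment (smallest adjusted p 0.237). Without pair 2 the count was 1170. With an intensity trend in the prior 113 passed, with no scaling 376 did, and among features with a mean log2 of 7 or more 4 did. The labels number the mice as individuals and do not say what else same-numbered mice shared.

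Of the listed genes 16, or 31.4%, had an unadjusted p under 0.05 for replicate number, beside 14.8% of all features and 9.95% of those at least as bright as the dimmest listed gene. Without pair 2 the number was 3, with no scaling 5 and with an intensity trend 27. Over all 12439 features the counts at these settings were 1170, 1284 and 2558, so the higher share in the list depended on the setting. Zfp37 (limma, unadjusted p = 0.00176, adjusted p = 0.237) and Vmn1r20 (unadjusted p = 0.00202) had the lowest values. The pair means of Zfp37 spanned 1.21 on the log2 scale and those of Vmn1r20 spanned 1.02, while the group differences of these genes were -0.11 and 0.14. Replicate 2 was the highest array of both groups in 30 listed genes, or 58.8%, against 22.1% of all features. Among them were Cpne4, Lmbr1, Gatad2a, Rbfox2, Fgf2, Tlr4 and Vgf.

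Ppp1r18 and Adgb, named after their values were seen, followed the replicate number at the bright end of the scale. Ppp1r18, a regulatory subunit of protein phosphatase 1, had 51507, 51806 and 27799 in controls and 50189.6, 48551 and 34090.1 in ADI. Adgb, the globin androglobin, had 54678, 52346.5 and 29148.5 in controls and 48321, 46953 and 34394 in ADI. Replicate 3 was the low array in both groups for both genes, and their group differences were 0.054 ± 0.12 and -0.032 ± 0.13 (SE). With quantile normalization these differences were 0.20 ± 0.095 and -0.024 ± 0.11 (SE). Ppp1r18 was then higher in ADI in all 3 pairs, as it was with no scaling. Tulp4 shared the low replicate 3 and was also low in ADI replicate 1.

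**Figure D3:**
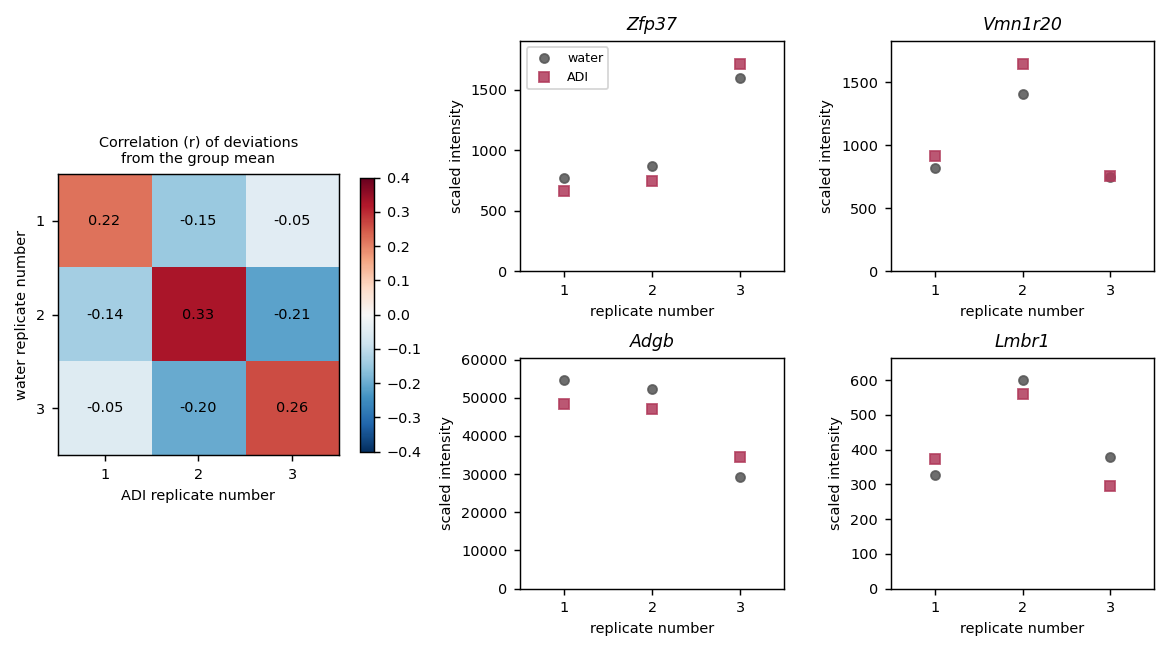
Left, correlation (r) over 12439 features of each control array's deviation from its group mean with that of each ADI array, highest on the diagonal of same-numbered arrays (0.22, 0.33 and 0.26). Right, scaled intensity (linear axis from 0) of 4 listed genes by replicate number, where control (circles) and ADI (squares) lie near each other within a number: Zfp37 is high and Adgb low in replicate 3, and Vmn1r20 and Lmbr1 are high in replicate 2.

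The features with the smallest p-values were dim and carry no symbol. Feature 14919 had scaled intensities of 10.8, 19.0 and 21.2 in controls and 61.7, 53.1 and 63.9 in ADI, a log2 difference of 1.67 ± 0.13 (SE) with the floor of 16. Feature 34571 had 36.5, 46.9 and 38.0 in controls and 65.4, 80.6 and 67.1 in ADI, a difference of 0.81 ± 0.092. Lower in ADI were feature 41233, with 55.9, 61.4 and 49.5 in controls and 16.8, 19.9 and 7.46 in ADI, and feature 17804, with 66.6, 61.4 and 53.0 in controls and 24.3, 25.6 and 23.4 in ADI. Their differences were -1.66 ± 0.095 and -1.30 ± 0.11 (SE).

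In all 4 of these features the groups were apart, yet none passed (limma, adjusted p over all features 0.539 for feature 41233, 0.851 for 14919 and 17804 and 0.998 for 34571). Of the 50 features with the smallest p, 37 were in the 10% of features with the lowest mean log2 value, and their median level was 46.3, beside 304.4 over all features and 719.7 over the listed genes. Values below 16 were set to 16, which touches control replicate 1 of feature 14919 and ADI replicate 3 of feature 41233, and the files give no detection calls for such dim spots. The differences of these 2 features were 1.87 and -2.03 with a floor of 1, where the SE was 0.25 and 0.26, and 0 with a floor of 64. The smallest adjusted p over all features (limma) was 0.998 with the floor of 1 and 0.947 with that of 64, and with no scaling features 14919, 41233 and 17804 were among the 36 that passed.

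**Figure D4:**
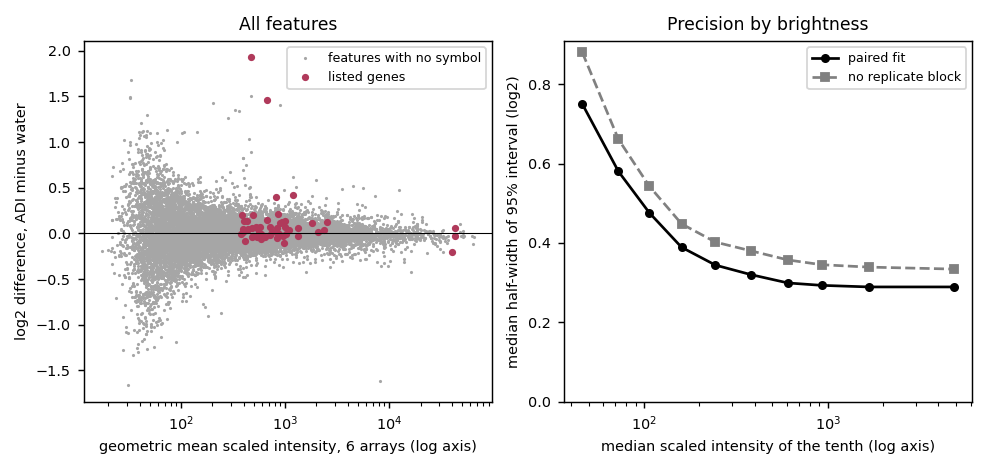
Left, log2 difference (ADI minus water control) of all 12439 features against their geometric mean scaled intensity on a log axis, with the 51 listed genes in red, most of them near 0 and Phldb2 and Olfr1278 at 1.93 and 1.46. Right, median distance from the estimate to the end of its 95% interval in 10 classes of brightness with equal numbers of features, which falls from 0.75 to 0.29 on the log2 scale in the paired fit and from 0.88 to 0.33 without the replicate block.

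Precision depended on brightness. The 95% interval extended by a median of 0.34 on the log2 scale to each side of the estimate, and by 0.42 without the pairing. In the dimmest 10% of features it extended by 0.75, and in the brightest 10% by 0.29, which corresponds to 1.22-fold. For 11023 features, or 88.6%, the interval lay wholly inside a 2-fold difference in either direction, and for 8333, or 67.0%, inside 1.5-fold. Of the listed genes 48, or 94.1%, lay inside 2-fold, beside 99.0% of features at least as bright as the dimmest of them. Inside 1.5-fold lay 45, or 88.2%, beside 92.7% of those features. In the dimmest 10% the share inside 2-fold was 38.9%. There the pairs also moved apart, with median differences of -0.045 in pair 1, -0.13 in pair 2 and 0.13 in pair 3. These intervals are not adjusted for the number of features. A difference could exceed its interval and still miss the adjusted threshold, as it did in the 522 features at an unadjusted p under 0.05 (limma). With 3 pairs, a missed threshold does not show that the groups were alike.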

How the data were processed

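Brain RNA was measured on one-colour Agilent arrays (Cy3), 1 per mouse, and the authors deposited intensity values, read with Agilent Feature Extraction per the submitters' processing notes, its version and background correction not given in the sources used here. The deposited values are whole numbers with no scaling between arrays, and some lie at or below 0. Symbols came from the authors' list of 51 genes through its feature number, per the file headers; 46 accessions matched RefSeq (GRCm38.p6). Its fold columns were not used.

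Arrays were scaled to the same 75th percentile (936.1), values below 16 were set to 16 (19 to 60 features per array), and log2 was taken. The 6 arrays were fitted with limma 3.58.1 in R 4.3.3 (lmFit, eBayes) with group and replicate number as terms, and Benjamini-Hochberg adjustment ran over all features. The replicate numbers were taken as pairs by the rule set for this comparison. As a description, residuals of same-numbered arrays correlated at r = 0.22, 0.33 and 0.26. The labels describe the replicates as separate mice. Levels are mean scaled intensities (SD), and differences are log2 values with the SE of the fit. The number of arrays limits the precision.

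Values per array are given for listed genes that lay the same way in all 3 pairs, that had the 5 highest or 5 lowest estimates, or that had the 5 widest or 5 narrowest intervals, and for the 2 higher and 2 lower features without a symbol that had the smallest p among those at least 1.5-fold apart in the same direction in all pairs. Vgf, Ppp1r18 and Adgb were added with their values known. The members, lists and tests were chosen with earlier results of these data known.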

Additional observations from a re-analysis of the deposited data

How the results depend on the processing

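The count of 0 features passing, and of 0 listed genes, was the same with median scaling, quantile normalization, a floor of 1 or 64, a mean log2 of at least 7, without features at the highest value, with an intensity trend, without the replicate block and without each pair. With no scaling 36 features passed, 22 higher and 14 lower, among them 1 listed gene, Phldb2 (limma, adjusted p = 0.0165). That fit took 51.4 prior degrees of freedom where the scaled one took 2.20, and the SE of Phldb2 was 0.43 in place of 1.33. The 522 features at an unadjusted p under 0.05 became 299 without the replicate block and 324 of 8781 with a mean log2 of at least 7; without a pair they were 504 to 601. Features in the same direction in all pairs numbered 2790, and 1721 with no scaling, where those lower went from 1444 to 463 and those higher from 1346 to 1258. The intervals inside 2-fold, 11023 in the main fit, numbered from 10338 without pair 1 to 11864 with a floor of 64. Among features with a mean log2 of at least 7 they were 8726 of 8781. For replicate number, a test and its alternatives added after the data were seen, 376 features passed with no scaling, 113 with the trend and 4 with a mean log2 of at least 7, and features at an unadjusted p under 0.05 numbered 1170 to 1622 without a pair. With a floor of 64 the differences of features 34571 and 17804 were 0.14 and -0.019. Of 612 listed-gene values under these alternatives, 53 had the other sign. A reversal was counted only where both values were larger than their SE, and there was none. Only 13 of the 51 listed genes had a main estimate larger than its SE, so no reversal could be counted for the others. The paired fit has 2 residual degrees of freedom, and 3 without-pair fits have 1 each.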
